A study of Mus musculus with 36 samples.

Results

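Grb10 and the 4 protein-coding genes nearest to it on mouse chromosome 11 were described in 18 RNA-seq libraries, to ask whether the low level of Grb10 in neural precursor cells without MLL3 and MLL4 catalytic activity is shared by its neighbours. The 5 genes are Ikzf1, Fignl1, Ddc, Grb10 and Cobl, out of 51734 gene symbols in the count table. Grb10 was chosen for its measured fall in that comparison, and the other 4 were chosen by their position next to it. All values of Grb10 are therefore given as a description without a test. Their SE, and any interval drawn for Grb10, come from the fit and do not allow for the choice of the gene.

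The cells were mouse E14 embryonic stem cells (ESC) and neural precursor cells (NPC) obtained from them with retinoic acid. The 6 groups of 3 libraries were wild type (WT), MLL3/4 dCD (dCD, MLL3 and MLL4 catalytically dead) and MLL2 dTAG (MLL2dTAG, MLL2 carrying a degron tag), each at both stages. Every group, WT included, is labelled as treated with dTAG-13, the compound that targets dTAG-tagged proteins for degradation. NPC received 2 µM of it from day 1 of differentiation, were also given retinoic acid (RA), and were harvested on day 4. For ESC the time with the compound is not given in the sources used here. Each genotype is a separate cell line, so an edit and a difference between lines cannot be told apart, and the labels do not say whether replicates were separate cultures, so that p-values measure the spread between these libraries only. Libraries that combine both edits, and a further set of the series, were not analysed here, so whether a low Grb10 level goes with the dCD genotype outside these libraries was not tested.

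MLL3 and MLL4 are histone H3K4 methyltransferases that act mainly at enhancers, and MLL2 acts mainly at CpG-rich promoters. Grb10 encodes an adaptor that binds the activated insulin and IGF1 receptors and dampens their signalling. It is imprinted: most tissues use the maternal copy, while neurons use the paternal copy from another start site. Gene-level counts separate neither the alleles nor the start sites.

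The libraries held 19.4 to 46.0 M counts each (M for mega), and levels are given in CPM, counts scaled to a common library size, after scaling by TMM factors. A count of 3, used as the floor for detection, corresponded to 0.0662 to 0.1597 CPM. Of the 7 stem cell markers examined, all were above 1 CPM in ESC, where their sum was 2654 to 3519 CPM, against 43.3 to 43.8 CPM in NPC WT, 66.9 to 72.5 CPM in NPC dCD and 168 to 170.2 CPM in NPC MLL2dTAG. Of the 7 neural progenitor markers, 6 were above 1 CPM in each NPC group, with sums of 149.9 to 154 CPM in WT, 314 to 348 CPM in dCD and 208 to 211 CPM in MLL2dTAG. In each ESC group 3 of the 7 were already above 1 CPM, with sums of 64.6 to 86.3 CPM, mostly from Nes. Sox1 was 3.05 CPM in ESC WT and 3.10 CPM in NPC WT. It was lower in NPC than in ESC of dCD (7.33 against 9.15 CPM) and MLL2dTAG (4.36 against 11.7 CPM). The mRNAs of the targeted genes Kmt2b, Kmt2c and Kmt2d were present in all 6 groups (lowest group means 172, 166 and 185 CPM), which does not check a catalytic mutation or a degron.

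In the GENCODE M21 annotation of GRCm38, Grb10 (ENSMUSG00000020176.17) spans chr11:11930508-12038683 on the minus strand. The genome build of this count table is not given in the sources used here; mm10, the same assembly, is named for the other set of libraries of the series, whose table lists identical symbols in the same order. Ddc (chr11:11814101-11898144, minus strand) lies 32.4 kb from the Grb10 body. Fignl1 (chr11:11787431-11808962, minus strand) and Ikzf1 (chr11:11685003-11772926, plus strand) follow at 121.5 and 157.6 kb on that side. Cobl (chr11:12236608-12464960, minus strand) lies 197.9 kb away on the other side.

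The promoters of the locus differ in CpG content. RefSeq (GRCm38.p6) gives 9 promoter windows for the 5 genes, each with 250 bases before and 50 after a start, and 4 are printed with every CpG in capitals. They are both Grb10 windows, the CpG-poor window of the nearest neighbour Ddc, and the window of Ikzf1, which has the most CpG.
Grb10, upstream start (chr11:12037371-12037670, minus strand): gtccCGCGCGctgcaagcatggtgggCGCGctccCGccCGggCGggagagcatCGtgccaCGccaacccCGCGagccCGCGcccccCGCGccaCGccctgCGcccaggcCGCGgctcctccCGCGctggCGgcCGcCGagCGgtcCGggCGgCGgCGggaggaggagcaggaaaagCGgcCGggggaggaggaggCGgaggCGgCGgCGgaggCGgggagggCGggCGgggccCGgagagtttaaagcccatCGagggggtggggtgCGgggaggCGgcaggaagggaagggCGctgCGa
Grb10, downstream start (chr11:12027922-12028221, minus strand): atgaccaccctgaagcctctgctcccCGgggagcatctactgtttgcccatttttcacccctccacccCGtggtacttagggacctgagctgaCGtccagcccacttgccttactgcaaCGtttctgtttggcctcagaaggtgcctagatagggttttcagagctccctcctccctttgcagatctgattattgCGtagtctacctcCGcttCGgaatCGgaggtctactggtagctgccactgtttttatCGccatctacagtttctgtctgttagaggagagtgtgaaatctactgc
Ddc, upstream start (chr11:11898095-11898394, minus strand): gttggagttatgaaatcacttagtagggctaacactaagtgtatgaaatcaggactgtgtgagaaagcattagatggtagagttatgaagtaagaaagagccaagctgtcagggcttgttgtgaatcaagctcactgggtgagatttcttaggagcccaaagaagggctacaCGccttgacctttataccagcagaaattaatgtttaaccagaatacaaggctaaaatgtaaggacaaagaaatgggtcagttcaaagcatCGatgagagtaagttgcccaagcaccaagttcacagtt
Ikzf1, upstream start (chr11:11685675-11685974, plus strand): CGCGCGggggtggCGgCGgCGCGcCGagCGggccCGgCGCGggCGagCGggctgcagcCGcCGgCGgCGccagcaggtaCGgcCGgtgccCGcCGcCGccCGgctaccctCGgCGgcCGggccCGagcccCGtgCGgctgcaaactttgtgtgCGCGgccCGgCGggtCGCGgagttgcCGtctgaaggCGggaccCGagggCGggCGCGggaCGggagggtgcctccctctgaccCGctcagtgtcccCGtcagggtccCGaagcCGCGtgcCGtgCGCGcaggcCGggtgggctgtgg

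The upstream Grb10 window held 45 CpG and 80.0% G and C, against a median of 7 CpG and 52.7% over all 32851 windows of the table. Its downstream window held 9 CpG. The Ikzf1 window had 52 CpG, the highest count of the 9, and the first windows of Cobl and Fignl1 had 42 and 34. Ddc was CpG-poor, with 2 and 5 CpG in its windows. The letters AGGTCA, the core recognition letters of many nuclear receptors, were found on either strand once in the upstream Ddc window and once in that of Fignl1, and 16.3% of all windows hold them. The letters TATAAA occurred once, in the upstream Ddc window (13.6% of all windows). CCGCCC occurred 5 times in the upstream Grb10 window, 3 times each in the first windows of Fignl1 and Cobl and 2 times in that of Ikzf1 (35.7% of all windows hold it at least once). CCGCCC contains a CpG, so its matches overlap the CpG in capitals, and a match describes the sequence only.

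Grb10 was 321, 324 and 313 CPM in the 3 NPC WT libraries and 9.57, 8.14 and 7.48 CPM in the 3 NPC dCD libraries. In NPC MLL2dTAG it was 223, 231 and 232 CPM. In all 3 dCD libraries it thus stood far below every other NPC library, and no library of one NPC group overlapped another group. The change in dCD against WT was −5.25 on the log2 scale (SE 0.06), a 38.1-fold lower level, and it was the 7th lowest of the 20511 changes in that comparison, as the choice of the gene implies. Marker levels also differed in the same dCD libraries. The neural progenitor sum given above was higher, mostly through Nes (91.2 ± 1.08 to 231 ± 15.7 CPM, SD, n = 3), while Neurog2 was 4.31 ± 0.389 CPM in WT and 3.18 ± 0.174 CPM in dCD, and Dbx1 was 2.43 ± 0.486 and 1.52 ± 0.314 CPM. The 6 neuron markers summed to 236 to 242 CPM in WT and 309 to 330.1 CPM in dCD. Of these, Tubb3, Map2, Elavl3 and Snap25 had higher means in dCD. Dcx (81.4 ± 4.01 in WT and 77.3 ± 2.63 CPM in dCD) and Rbfox3 (5.13 ± 0.554 and 3.65 ± 0.355 CPM) had lower ones. The 5 mesenchyme markers summed to 487 to 505 CPM in WT and 664 to 740.4 CPM in dCD. The 5 trophoblast markers summed to 163 to 167 CPM in WT and 166 to 181 CPM in dCD. Among them Gata3 was 20.9 ± 1.78 and 55.4 ± 3.66 CPM, and Hand1 0.236 ± 0.125 and 0.643 ± 0.207 CPM. The other members had lower means in dCD: Krt8 was 142 ± 3.45 and 112 ± 5.05 CPM, Cdx2 0.759 and 0.621 CPM, and Elf5 1.80 and 1.78 CPM. The part of these in the level of Grb10 was not tested. In bulk RNA, fewer cells that express a gene and less RNA per cell cannot be told apart.

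In ESC, Grb10 was 94.9, 103 and 101 CPM in WT and 50.8, 55.6 and 48.8 CPM in dCD. The ESC MLL2dTAG libraries lay between these groups at 77.1, 80.7 and 74.3 CPM, with no overlap. The log2 difference of ESC dCD from WT was −0.95 (SE 0.05), a 1.93-fold lower level. For ESC MLL2dTAG it was −0.37 (SE 0.05). The same WT libraries enter both comparisons. Between ESC dCD and ESC MLL2dTAG the log2 difference was −0.58 (SE 0.05).

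Grb10 was higher in NPC than in ESC of WT and MLL2dTAG, and lower in NPC than in ESC of dCD. WT went from 99.5 ± 4.16 CPM in ESC to 319 ± 5.70 CPM in NPC (SD, n = 3), a log2 difference of 1.68 (SE 0.05). In MLL2dTAG the level went from 77.3 ± 3.20 to 229 ± 4.98 CPM, a log2 difference of 1.57 (SE 0.05). In dCD the level went from 51.8 ± 3.50 CPM in ESC to 8.40 ± 1.07 CPM in NPC, a log2 difference of −2.63 (SE 0.06). The 6 groups in order of level were NPC WT, NPC MLL2dTAG, ESC WT, ESC MLL2dTAG, ESC dCD and NPC dCD, and no 2 neighbours in that order had overlapping libraries. NPC MLL2dTAG against NPC WT was −0.48 (SE 0.04) on the log2 scale, and NPC dCD against NPC MLL2dTAG was −4.77 (SE 0.06).

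**Figure D1:**
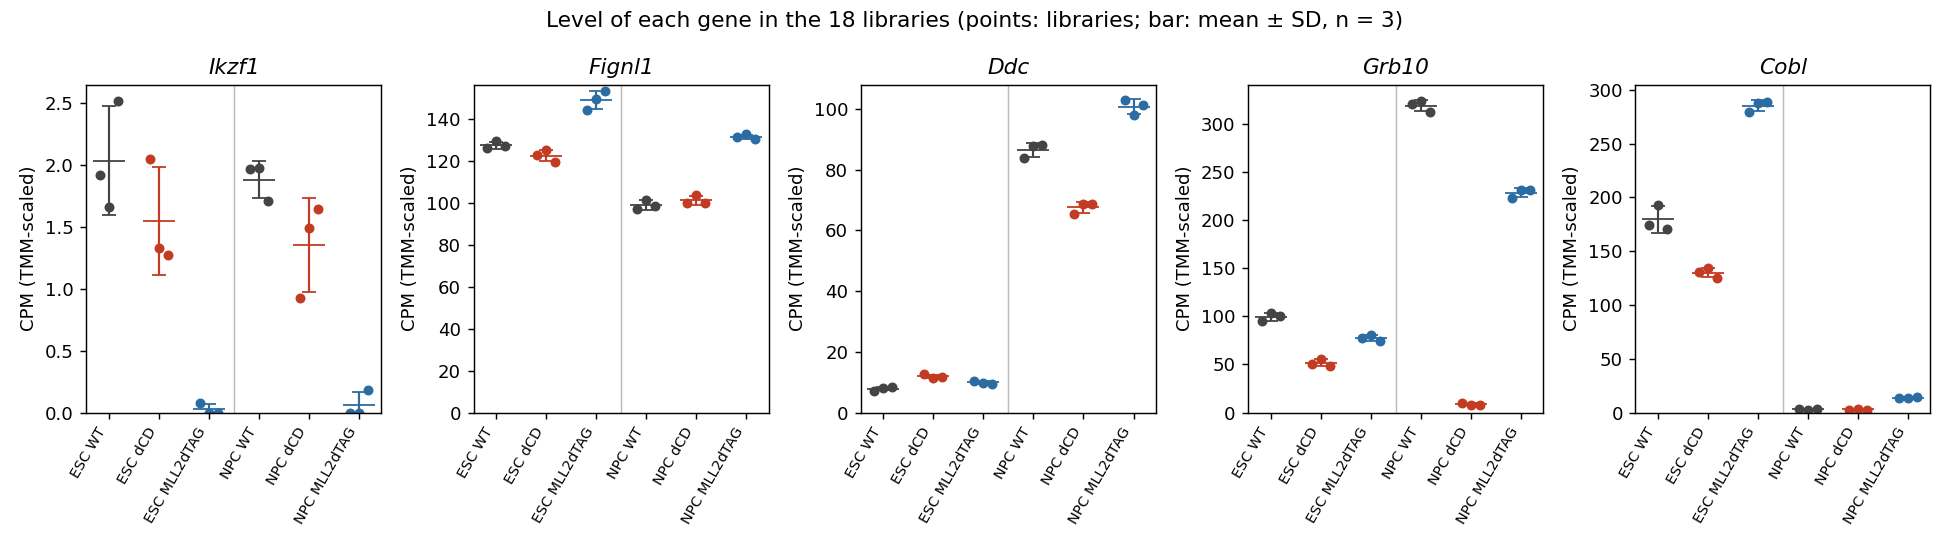
Level of Ikzf1, Fignl1, Ddc, Grb10 and Cobl, in chromosome order, in CPM (linear axes from 0, one scale per gene) for the 6 groups; points are the 3 libraries of a group, bars the mean and SD. Grb10 in the NPC dCD libraries lies between 7.48 and 9.57 CPM, while Ddc in the same libraries lies at 65.4 CPM or more and Fignl1 at 99.8 CPM or more.

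None of the 4 neighbours differed in NPC dCD by as much as Grb10, which was chosen for its fall there. As Grb10 had the 7th lowest of the 20511 changes, a smaller fall or a rise holds for nearly all genes. Only Ddc of the 4 was called lower in NPC dCD against WT, by 0.36 on the log2 scale, and Fignl1, Ikzf1 and Cobl were not called. Over all genes tested, 53.5% were called in this comparison, 26.8% lower and 26.7% higher, so 1 of 4 is near the background. The lowest bounds of the neighbours' 95% intervals were −1.11 for Ikzf1, −0.45 for Ddc, −0.38 for Cobl and −0.04 for Fignl1. The value of Grb10, given as a description only, was −5.25. In the direct comparison of NPC dCD with NPC MLL2dTAG, all 4 neighbours were called (55.9% of genes called). Ikzf1 was higher in dCD, and Ddc (−0.58), Fignl1 (−0.38) and Cobl (−2.23 on the log2 scale, SE 0.10) were lower. The MLL2dTAG level of these 4 genes differed from WT as well.

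Ddc encodes aromatic L-amino acid decarboxylase, which makes dopamine and serotonin from their precursors. Ddc was 83.9, 87.7 and 88.0 CPM in NPC WT and 65.4, 68.6 and 68.6 CPM in NPC dCD. The groups did not overlap, and Ddc fell by 0.36 (SE 0.04, 1.28-fold lower; Benjamini-Hochberg adjusted p = 1.2e-08 by the quasi-likelihood test of edgeR). In ESC the change in dCD had the other sign: the libraries held 7.19, 8.06 and 8.40 CPM in WT and 12.6, 11.4 and 11.6 CPM in dCD, a rise of 0.58 (SE 0.08, adjusted p = 1.1e-07; 48.3% of genes called). In ESC dCD, Ddc was thus above WT and Grb10 below it.

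In MLL2dTAG, Ddc rose at both stages. It was 10.3, 9.87 and 9.45 CPM in ESC (log2 change 0.31, SE 0.08; edgeR adjusted p = 8.1e-04; 56.9% of genes called) and 103, 98.1 and 101 CPM in NPC (0.22, SE 0.04; adjusted p = 4.0e-05; 61.7% of genes called). Endoderm, a tissue that also uses Ddc, was followed through 6 markers. Their sum was 510 to 524 CPM in NPC MLL2dTAG, 205 to 213 CPM in NPC WT and 177 to 184 CPM in NPC dCD, with 6, 5 and 5 of the 6 markers above 1 CPM. Gata4 was 36.1 ± 1.86 CPM in NPC dCD and 62.6 ± 0.663 CPM in NPC WT. Gata6 had a higher mean in NPC dCD (131 ± 3.29 against 127 ± 3.05 CPM), and the other markers had lower ones. In ESC the sum was 26.8 to 29.5 CPM in MLL2dTAG, 14.3 to 15.6 CPM in WT and 10.0 to 10.8 CPM in dCD. In ESC dCD the sum was thus below WT, while Ddc was above it. The 5 markers of monoaminergic neurons summed to 11.04 to 12.6 CPM in NPC MLL2dTAG, 11.02 to 11.7 CPM in NPC WT and 5.64 to 6.60 CPM in NPC dCD, where Dbh was at 0 counts, while in NPC WT Slc6a3 was. Dbh, the enzyme that makes noradrenaline, was 6.72 ± 0.770 CPM (SD, n = 3) in NPC MLL2dTAG and 0.205 ± 0.102 CPM in NPC WT. The level of Dbh was already 6.96 ± 0.671 CPM in ESC MLL2dTAG, against 0.0756 ± 0.0728 CPM in ESC WT. Th and Slc18a2 of the same list were lower in NPC MLL2dTAG than in NPC WT, at 0.292 ± 0.119 against 1.87 ± 0.384 CPM and 4.61 ± 0.117 against 9.14 ± 0.649 CPM. The part of these cell types in the changes of Ddc was not tested.

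Differentiation raised Ddc in all 3 lines, unlike Grb10. The rise from ESC to NPC was 3.44 on the log2 scale in WT (SE 0.06; adjusted p = 1.4e-33 by edgeR, 79.5% of genes called), 3.35 in MLL2dTAG (SE 0.06; 78.2% of genes called) and 2.51 in dCD (SE 0.06; 77.6% of genes called). The antisense transcript 1700042O10Rik overlaps Ddc and was at most 0.895 ± 0.121 CPM (SD, n = 3) in any group. The counting was not stated to use strand, so reads of such pairs may not be separated. The part of antisense reads in the level of Ddc was not tested.

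Fignl1 encodes an AAA ATPase that works in homologous recombination. In dCD it was close to WT at both stages: NPC WT held 97.1, 102 and 98.4 CPM and NPC dCD held 100.1, 104 and 99.8 CPM, ranges that overlap. The log2 change in NPC was 0.03 (SE 0.04, 95% interval −0.04 to 0.11; edgeR adjusted p = 0.48), and in ESC it was −0.06 (SE 0.04, interval −0.13 to 0.02; adjusted p = 0.20), where the dCD libraries, at 119.8 to 125 CPM, did not overlap those of WT. In MLL2dTAG it rose, by 0.22 in ESC (SE 0.04; 144, 149.5 and 153 CPM against 126, 129 and 127 CPM in WT; adjusted p = 1.6e-06) and by 0.41 in NPC (SE 0.04; 131, 133 and 131 CPM; adjusted p = 2.3e-12). From ESC to NPC Fignl1 fell in each line, by 0.37 in WT, 0.28 in dCD and 0.18 in MLL2dTAG on the log2 scale.

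Cobl encodes an actin nucleator that shapes neuronal processes and brush borders. It was a stem cell transcript in these cultures: 174.8, 193 and 170.5 CPM in ESC WT against 3.13, 2.77 and 3.52 CPM in NPC WT, so that it fell by 5.84 on the log2 scale (SE 0.08; edgeR adjusted p = 4.6e-37). In ESC dCD it was 131, 134 and 125 CPM, below every WT library, and fell by 0.47 (SE 0.05; adjusted p = 1.3e-09). In ESC dCD 2 of the 4 neighbours were thus called, Ddc higher and Cobl lower, against 48.3% of all genes (25.7% higher and 22.6% lower). In NPC, where Grb10 fell most, Cobl was 2.27, 3.73 and 2.70 CPM in dCD, overlapping WT (log2 change −0.10, SE 0.14, 95% interval −0.38 to 0.18; adjusted p = 0.56). The summed counts behind that value were 329 in WT and 301 in dCD. Without NPC dCD replicate 1 the value was 0.041, and without replicate 2 it was −0.33, neither of them called.

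In MLL2dTAG, Cobl went up at both stages, opposite to Grb10. ESC MLL2dTAG held 279, 287 and 289 CPM (log2 change 0.67, SE 0.05; edgeR adjusted p = 4.1e-14). NPC MLL2dTAG held 13.1, 13.9 and 14.2 CPM, a rise of 2.13 (SE 0.10, 4.37-fold; adjusted p = 8.0e-20), which left it 20.8-fold below ESC of the same line. The sum of the pluripotency markers was also highest in this line at both stages, at 3407 to 3519 CPM in ESC and 168 to 170.2 CPM in NPC. Sox2 did not follow the sum, with 311 ± 16.4 CPM in ESC WT against 272 ± 9.62 CPM in ESC MLL2dTAG, and 28.3 ± 2.66 CPM in NPC dCD against 17.3 ± 0.621 CPM in NPC MLL2dTAG, and Pou5f1 was 623 ± 27.8 CPM in ESC dCD and 619 ± 19.2 CPM in ESC MLL2dTAG. The part of these markers in the level of Cobl was not tested. The antisense transcript Gm12002, inside Cobl, was at most 0.342 ± 0.211 CPM (SD, n = 3).

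Ikzf1 encodes Ikaros, a zinc finger factor of lymphoid development, and had the lowest level per kb of exon of the 5 genes in each of the 6 groups. It had 36, 50 and 74 counts in ESC WT (1.92, 1.66 and 2.52 CPM) and 48, 32 and 34 counts in ESC dCD (2.05, 1.33 and 1.27 CPM), which overlap. NPC WT had 62, 74 and 61 counts (1.96, 1.97 and 1.70 CPM) and NPC dCD 30, 54 and 56 counts (0.920, 1.49 and 1.64 CPM), with every dCD library below every WT library. The change in dCD was not called at either stage: −0.40 in ESC (SE 0.33, 95% interval −1.07 to 0.26; edgeR adjusted p = 0.33) and −0.47 in NPC (SE 0.31, interval −1.11 to 0.17; adjusted p = 0.21), and both intervals include 0 as well as a lower level. From the summed counts, the ratio of dCD to WT was 0.750 in ESC (exact 95% interval for counts 0.585 to 0.960). In NPC the ratio was 0.725 (0.579 to 0.904). Both of these intervals lie below 1, but they cover counting error only and leave out the spread between libraries.

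In MLL2dTAG, Ikzf1 was nearly absent. The ESC libraries had 2, 0 and 0 counts and the NPC libraries 0, 0 and 7 counts, so that NPC MLL2dTAG replicate 3 was the only one of the 6 above the floor of 3 counts. The ratio of WT to MLL2dTAG was 99.9 in ESC (exact 95% interval for counts 27.2 to 832) and 31.5 in NPC (15.0 to 79.3), where the interval covers counting error only. The edgeR test called both falls (adjusted p = 1.2e-10 and 2.0e-10). The size of the fall rests on 1 library at each stage. The fitted log2 change was −6.38 in ESC, −9.04 without ESC MLL2dTAG replicate 1 and −5.76 without replicate 3, and it was −4.89 in NPC, −8.90 without NPC MLL2dTAG replicate 3 and −4.22 without replicate 2. Where the remaining MLL2dTAG libraries are all at 0 counts, the fitted value depends on the prior count and is no bound. The 6 haematopoietic markers summed to 0.574 to 0.731 CPM in NPC MLL2dTAG, 0.696 to 1.33 CPM in NPC WT and 0.982 to 1.71 CPM in NPC dCD, with none of the 6 at 1 CPM and Ptprc at 0 counts in all 3 groups. In ESC they summed to 6.70 to 8.54 CPM in MLL2dTAG and 6.50 to 9.79 CPM in WT, and these ranges overlap. The part of these cells in the level of Ikzf1 was not tested.

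**Figure D2:**
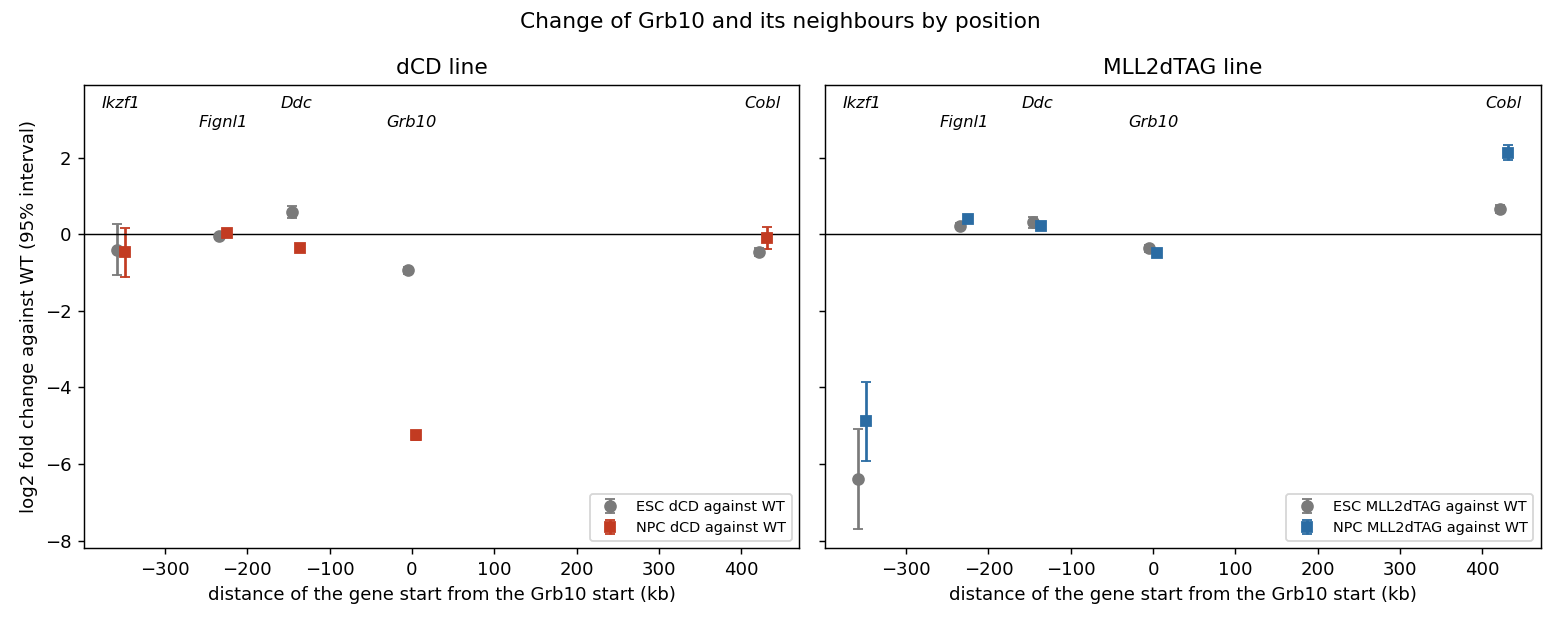
Log2 fold change against WT, with 95% interval from the edgeR fit, by distance in kb of each gene's start from the Grb10 start, for dCD (left) and MLL2dTAG (right); grey circles are ESC and coloured squares NPC, set slightly apart for visibility. In NPC dCD Grb10 lies at −5.25 while its 4 neighbours lie between −0.47 and 0.03, and in MLL2dTAG the lowest value is that of Ikzf1.

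All 4 neighbours were called in MLL2dTAG against WT at both stages, with Ddc, Fignl1 and Cobl higher and Ikzf1 lower, against 56.9% of all genes called in ESC (28.7% higher and 28.2% lower) and 61.7% in NPC (33.3% higher and 28.4% lower). The share of lower among the NPC calls, 46.0%, was 55.3% with upper quartile factors and 54.3% with library totals, while all 4 neighbours were called under each alternative. The change of a line against WT in NPC minus that in ESC was also tested for the neighbours. For dCD this difference was called for Ddc (−0.93, SE 0.09) and for Cobl (0.36, SE 0.15; edgeR adjusted p = 0.044, with a range of 0.0065 to 0.54 over the alternatives), against 42.9% of all genes. The call for Cobl was lost without NPC dCD replicate 2 (0.13), NPC WT replicate 1 (0.36) or 2 (0.27), ESC WT replicate 2 (0.30), ESC dCD replicate 1 (0.36) or 3 (0.33), or any of the 3 ESC MLL2dTAG libraries (0.36). For MLL2dTAG it was called for Cobl (1.46, SE 0.11) and Fignl1 (0.19, SE 0.05), against 49% of all genes. The call for Fignl1 was lost with library totals alone (0.097, adjusted p = 0.12) and with all genes kept (0.088, adjusted p = 0.38). In the direct comparison of ESC dCD with ESC MLL2dTAG all 4 neighbours were called (47.2% of genes), with Ddc (0.27) and Ikzf1 higher in dCD and Fignl1 (−0.28) and Cobl (−1.13) lower. For Grb10 the stage difference in dCD was −4.30 (SE 0.08).

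Levels of different genes were compared per kb of exon in the same annotation. In NPC WT, Grb10 led with 35.1 ± 0.627 CPM per kb (SD, n = 3), followed by Fignl1 (20.5 ± 0.476), Ddc (19.4 ± 0.513), Cobl (0.386 ± 0.0461) and Ikzf1 (0.325 ± 0.0263). In NPC dCD the order was Fignl1 (20.9 ± 0.476), Ddc (15.1 ± 0.422), Grb10 (0.924 ± 0.118), Cobl (0.356 ± 0.0919) and Ikzf1 (0.234 ± 0.0659). Grb10 thus moved from the highest to the third level per kb of exon of the locus. In ESC WT it was the third, at 10.9 ± 0.458 CPM per kb, below Fignl1 (26.4 ± 0.333) and Cobl (22.1 ± 1.497) and above Ddc (1.77 ± 0.140).

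A wider view took in the 22 other genes annotated within 2 Mb of Grb10, 4 of them protein-coding. Of these 22, 21 were in the count table and 4 had enough counts to be tested. In NPC dCD against WT, Gm12002 was at 0 counts in both groups. None of the other 3 was called lower, against 26.8% of all genes, and Vwc2, 662 kb away, was higher, from 0.256 ± 0.0303 to 1.46 ± 0.318 CPM (log2 change 2.49, SE 0.48; edgeR adjusted p = 3.2e-05). Zpbp, a sperm acrosome protein gene 468 kb away beyond Ikzf1, was 2.72 ± 0.280 CPM in NPC WT and 2.21 ± 0.386 CPM in NPC dCD (−0.30, SE 0.21; adjusted p = 0.24). In MLL2dTAG Zpbp fell, to 0.174 ± 0.0383 CPM in NPC (−3.96, SE 0.30; adjusted p = 4.9e-14) and from 0.630 ± 0.133 to 0.125 ± 0.0211 CPM in ESC (−2.36, SE 0.42; adjusted p = 8.9e-06). In ESC dCD it was higher (0.82, SE 0.29; adjusted p = 0.019), a call lost without ESC WT replicate 1 (0.70), without ESC dCD replicate 1 (0.74), with all genes kept regardless of counts (0.84) and when only these groups were fitted (0.81), with adjusted p between 0.017 and 0.07 over the alternatives. The antisense transcripts 1700042O10Rik and Gm12002 were not called against WT in either line.

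Grb10 acts on insulin and IGF receptor signalling, so 32 genes of that pathway were followed, of which 31 were tested. In NPC dCD 12 were called higher and 15 lower, with a median log2 change of −0.08 against −0.02 over all genes, of which 53.5% were called. The lowest were Grb7, an adaptor of the same family as Grb10 (23.4 ± 0.768 to 10.3 ± 0.658 CPM; −1.18, SE 0.06), the receptor substrate Irs2 (95.9 ± 4.10 to 54.3 ± 2.64 CPM; −0.82, SE 0.05) and the insulin receptor Insr (122 ± 3.69 to 74.6 ± 4.75 CPM; −0.71, SE 0.05). The highest were Ptpn1, a phosphatase of the insulin receptor (43.3 ± 1.84 to 77.5 ± 4.61 CPM; 0.84, SE 0.06), the IGF2 scavenger receptor Igf2r (0.62, SE 0.05) and Grb14, the third adaptor of the family (6.02 ± 0.814 to 8.66 ± 0.492 CPM; 0.52, SE 0.13). Grb7 and Grb14 thus moved in opposite directions in the libraries in which Grb10 was low.

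In ESC dCD 11 genes of the pathway were called higher and 8 lower (median 0.03 against 0.02 over all genes, of which 48.3% were called), and Grb7 fell by 0.33 while Grb14 changed by 0.08 (SE 0.14; edgeR adjusted p = 0.67). In MLL2dTAG 13 were higher and 12 lower in ESC (median 0.08 against −0.001 over all genes, of which 56.9% were called), and 14 higher and 8 lower in NPC (0.06 against 0.03, with 61.7% called). In NPC MLL2dTAG both family members fell, Grb7 by 0.61 (SE 0.06) and Grb14 by 1.55 (SE 0.15). The lowest change of the list in NPC MLL2dTAG was that of Igf2 (2903 ± 6.85 to 254 ± 3.46 CPM; −3.51, SE 0.04). The highest was that of Irs4 (4.00 ± 0.436 to 14.4 ± 1.16 CPM; 1.86, SE 0.11).

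**Figure D3:**
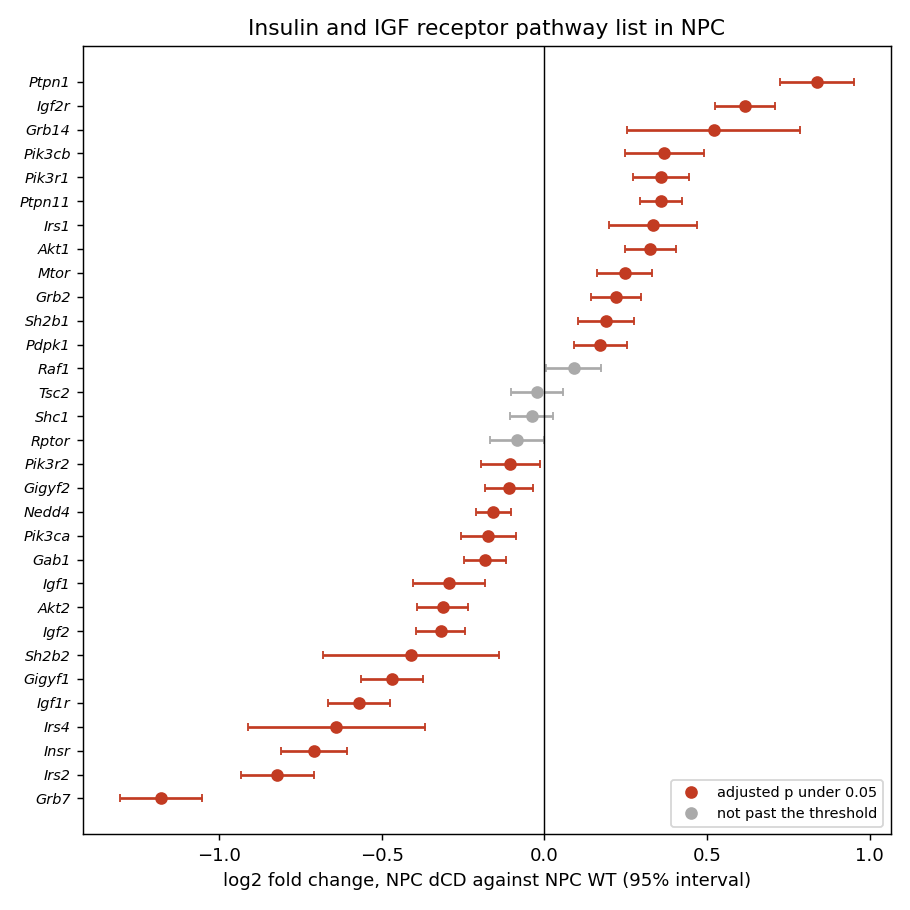
Log2 fold change in NPC dCD against NPC WT (linear axis) with 95% interval for the 31 tested genes of the insulin and IGF receptor list, in order of the change; red points passed the edgeR threshold and grey points did not. The values run from −1.18 for Grb7 to 0.84 for Ptpn1, and 12 genes lie above and 15 below 0 among those that passed.

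Genes with a pattern like that of Grb10 were looked up by Pearson correlation of log2 (CPM + 0.5) over the 18 libraries, which share stage and line within groups, among genes whose mean reached 5 CPM. The 5 highest were Platr20 and Atf7ip (both r = 0.93), Rhpn2 and Rap1gap (both 0.90) and Htatsf1 (0.90). All 5 were lower in NPC dCD than in NPC WT, by less than Grb10. Their choice by likeness to Grb10 over the same libraries favours such genes, so this is no separate result. Atf7ip was 199 CPM in NPC WT and 148 CPM in NPC dCD, and Rhpn2 43.3 and 15.1 CPM. Among the neighbours r with Grb10 was 0.20 for Fignl1, 0.14 for Ddc, 0.06 for Cobl and −0.18 for Ikzf1. Without the 3 NPC dCD libraries, r was 0.89 for Ddc and −0.91 for Cobl, and 0 of the 5 highest genes were shared.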

How the data were processed

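RNA-seq counts per gene symbol were used for 18 libraries in 6 groups of 3. The authors deposited raw counts with no normalization, from TruSeq Stranded mRNA libraries per the labels' protocols. HTSeq is named as the counter per the submitters' processing notes, and the aligner, strand setting and build of this table are not given in the sources used here. Column names tied the data to samples. Columns with no sample of their own, 6 here and 12 in the other table, were not analysed here.

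Counts were fitted in R 4.3.3 with edgeR 4.0.16 (filterByExpr by group, TMM factors of 0.967 to 1.05, 1 mean per group, quasi-likelihood F test, 12 residual degrees of freedom). Benjamini-Hochberg adjustment ran over all 20511 genes tested, and a gene was called at an adjusted p under 0.05. The SE is the log2 change over the root of F. Intervals and floors on counts cover counting error only. The biological coefficient of variation was 4.01%.

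The members and lists were chosen with earlier results of these data known, so Grb10 is described without p-values, although tests of it in ESC and in MLL2dTAG had been planned. The named genes are the 5 members, the tested genes within 2 Mb and the 5 genes most like Grb10. Of the pathway, the 3 highest and 3 lowest called genes in NPC dCD are named, with the Grb10 family. The lowest and the highest pathway gene in NPC MLL2dTAG are named as well. On simulated data for NPC dCD against WT (20511 genes), 77.1% of changes of 0.5 on the log2 scale, 95.1% of 1 and 100% of 2 were recovered, with 6 false among 187 calls. Only 70, 61 and 69 genes of 1 CPM or more were given these changes, in NPC dCD alone. All other genes had the same mean in every group. In the data 53.5% of genes were called, so these rates need not hold for the calls given here. Alternatives were DESeq2 1.42.0, other scalings, no filter, fewer groups, a replicate block, halved counts and each library left out.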

Additional observations from a re-analysis of the deposited data

Results flagged for a closer look

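For 4 results the change of an edited line against WT differed between NPC and ESC by an interaction term in the edgeR fit. The dCD change of Ddc, the aromatic amino acid decarboxylase, in NPC minus that in ESC was −0.93 on the log2 scale (SE 0.09, adjusted p = 8.4e-11), and Ddc was higher than WT in 3 of 3 ESC libraries and lower in 3 of 3 NPC libraries. The dCD change of the actin nucleator Cobl differed by 0.36 (SE 0.15, adjusted p = 0.044), a call that 13 of 26 alternatives lost. The MLL2dTAG change of the recombination gene Fignl1 differed by 0.19 (SE 0.05, adjusted p = 0.0024), a call lost with library totals alone (0.097) and with all genes kept (0.088), and that of Cobl by 1.46 (SE 0.11, adjusted p = 3e-13). Both genes were higher than WT at both stages in every MLL2dTAG library.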

How the results depend on the processing

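Of 2418 values recomputed under the alternatives for 101 results, 2360 kept their direction and their side of the threshold, or stayed within the allowed spread. In NPC dCD against WT, 1 neighbour was called under all 26 alternatives, Grb10 ran from −5.35 to −5.17 and Ddc from −0.38 to −0.33 on the log2 scale. Elsewhere Grb10 moved beyond the allowed spread. In NPC MLL2dTAG against WT (−0.48) it was −0.57 with upper quartile factors, −0.56 with library totals and −0.53 with only the groups compared. In WT NPC against ESC (1.68) it was 1.60 with upper quartile factors, 1.76 with library totals and 1.78 without a filter. Its MLL2dTAG stage difference (−0.11) was −0.21 without a filter. When 1 library was left out, the sign turned for values that were not called. Cobl in NPC dCD ran from −0.33 to 0.041, turning without NPC dCD replicate 1. Ikzf1 ran from −0.25 to 0.085 in WT NPC against ESC (turning without ESC WT replicate 3), from −0.34 to 0.066 in dCD NPC against ESC (ESC dCD replicate 1 or NPC dCD replicate 1), and from −2.63 to 4.04 in MLL2dTAG NPC against ESC (NPC MLL2dTAG replicate 3). Its stage difference ran from −0.27 to 0.18 for dCD (ESC WT replicate 2, ESC dCD replicate 1 or NPC dCD replicate 1) and from −2.52 to 4.15 for MLL2dTAG (NPC MLL2dTAG replicate 3). The r of Fignl1 and Cobl with Grb10 was −0.57 and −0.91 without the NPC dCD libraries. For the dCD stage difference, 1 neighbour was called in place of 2 with upper quartile factors, library totals, only the groups compared and halved counts, and 1 to 2 when a library was left out. For the MLL2dTAG stage difference it was 1 with library totals and 1 without a filter, where Fignl1 was 0.10 and 0.09. The cause of these was not tested.

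The replicate numbers did not pair the libraries: 0 of 45 same-number pairs deviated together with r over 0.1 (−0.16 to 0.08). With the replicate block, 1 neighbour was called in NPC dCD, Grb10 was −5.25 there, and no call among the results changed. With upper quartile factors the median of all genes moved by −0.12 in MLL2dTAG NPC against ESC, and the share of lower calls in NPC dCD against MLL2dTAG went from 56.5% to 45.2%.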
